A study of Mus musculus with 4 samples.

Results

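Interferon-stimulated genes were followed in group 3 innate lymphoid cells (ILC3s), lymphocytes of the gut wall that have no rearranged antigen receptor and make IL-22. A list of 45 gene names was taken, 39 of them effectors and regulators of the type I interferon response and 6 of them GTPases that are known as strong targets of interferon-gamma (Gbp2, Gbp3, Gbp7, Irgm1, Igtp and Ifi47). Rows with these names were read from each of 2 deposited tables. The table of Il17d-KO and WT ILC3s held 42 of the 45 among 15242 genes, without Oas2, Oas3 and Ifi44. The table of CD93-positive and CD93-negative ILC3s held 44 of the 45 among 12546 genes, without Mx1. No measured value entered the choice of names by the stated rule, but the list was drawn up with earlier results of these data known.

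There were 4 libraries of total RNA from the mouse small intestine, 1 per group, all labelled as steady state. The KO library came from ILC3s of mice deficient in IL-17D (genotype Il17d-KO), and the WT library from ILC3s of wild-type mice. The CD93-positive and CD93-negative libraries came from ILC3s of WT mice, divided by the surface glycoprotein CD93. The sort took live cells with low CD45, high CD90.2 and no CD3, among other criteria. A protocol of 12 h in culture without stimulation, ahead of the CD93 sort, is attached to all 4 libraries, and the labels do not tell whether the KO and WT cells were cultured too. They give no number, age or sex of the mice, and no word on pooling. Il17d itself was not analysed here, and the KO label therefore rests on the authors' word. With 1 library per group no difference below has a replicate check and none has a p-value.

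Interferons are secreted proteins, and those of type I are released by cells that sense viral or bacterial nucleic acids. Type I interferons bind the receptor IFNAR and activate a complex that holds STAT2 and IRF9 and binds the interferon-stimulated response element (ISRE). Interferon-gamma, a product of lymphocytes, binds IFNGR and acts through the gamma-activated site (GAS). Many genes, the GTPases among them, respond to both, so the division used here is one of known emphasis and not of exclusive targets.

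Promoters of both classes are shown first because the ISRE is a feature that many members hold. The rule did not use promoter letters. The members were listed as genes known to respond to interferon, though, so a high share of ISRE matches is not an independent result. The search used windows from 250 bases before to 50 bases after each annotated start (RefSeq, GRCm38.p6, the same assembly as mm10). ISRE was searched as GAAANNGAAA on both strands and GAS as TTCNNNGAA, which reads the same on both strands. Windows were at hand for 36 of the 45 members, 30 type I effectors and all 6 GTPases. An ISRE match stood in the window of 20 of the 36 members (55.6%), against 1079 of 27025 genes with a window (3.99%). It stood in 15 of 30 type I effectors (50%) and in 5 of 6 GTPases (83.3%), Ifi47 being the one without. GAS matches were found for 10 of 36 members (27.8%), against 9.55% of all genes, with 8 of 30 type I effectors (26.7%) and 2 of 6 GTPases, Gbp7 and Igtp (33.3%). A match is a description of letters in the window and not evidence of binding.

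The stretches printed here hold the ISRE matches of 5 type I effectors and 4 GTPases that were picked by hand. All 5 of these type I effectors were lower in KO. Matches that are not printed include those of Ddx58 and Ifitm3, at least 2-fold higher in KO, and of Eif2ak2, lower in KO. Each stretch is given 5′ to 3′ on the strand of the gene, with matches in capitals. A match on the other strand therefore reads TTTCNNTTTC, and neighbouring matches can share bases. Ifit3 (chr19:34583343-34583446, plus strand) and Ifit1 (chr19:34640755-34640843, plus strand) each held 2 separate matches. Isg15 (chr4:156200845-156200926, minus strand) held 3 that overlap, and Oas1a (chr5:120907526-120907575, minus strand) and Apol9b (chr15:77729005-77729071, plus strand) held 2 that overlap in the stretch shown. Among the GTPases, Gbp3 (chr3:142559969-142560043, plus strand) and Irgm1 (chr11:48871421-48871480, minus strand) held 2 overlapping matches, and Gbp2 (chr3:142620574-142620643, plus strand) and Igtp (chr11:58199492-58199555, plus strand) held 1.
Ifit3: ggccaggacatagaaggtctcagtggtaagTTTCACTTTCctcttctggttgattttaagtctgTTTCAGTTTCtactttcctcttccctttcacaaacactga
Ifit1: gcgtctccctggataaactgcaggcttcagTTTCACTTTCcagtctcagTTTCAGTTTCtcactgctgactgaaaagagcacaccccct
Isg15: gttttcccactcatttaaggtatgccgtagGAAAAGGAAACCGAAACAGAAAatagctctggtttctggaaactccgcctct
Oas1a: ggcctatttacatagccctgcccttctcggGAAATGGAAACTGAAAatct
Apol9b: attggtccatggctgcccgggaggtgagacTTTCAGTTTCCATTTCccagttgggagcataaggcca
Gbp2: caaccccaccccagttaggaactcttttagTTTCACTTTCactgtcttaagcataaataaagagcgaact
Gbp3: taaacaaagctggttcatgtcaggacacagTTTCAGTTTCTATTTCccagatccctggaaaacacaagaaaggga
Irgm1: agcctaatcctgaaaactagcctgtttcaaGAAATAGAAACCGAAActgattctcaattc
Igtp: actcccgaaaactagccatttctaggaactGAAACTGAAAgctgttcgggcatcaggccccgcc
The windows of Ifit2, which is described below with Ifit3, held no ISRE match, and neither did those of Cmpk2 and Dtx3l.

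Levels are FPKM, fragments per kilobase of gene length relative to the size of the library, as the authors deposited them. A difference is log2((FPKM + 1) / (FPKM + 1)), KO over WT or CD93-positive over CD93-negative, and genes at low levels come out closer to 0 on it than by the plain ratio. A gene counted as measured where it had at least 1 FPKM in either library of its pair, and 2-fold means a difference of at least 1 on this scale. Where whole reads could be recovered, the ratio of FPKM is given with its 95% exact (Clopper-Pearson) interval in parentheses. Such intervals cover counting error only and compare 2 libraries, not 2 conditions. The totals behind the FPKM scaling were 27002581 in KO and 26087274 in WT, and 11712846 (CD93-positive) and 11790580 (CD93-negative) in the other pair. The pairs were processed separately, so levels are not set across them. In bulk RNA, fewer cells of a type and less RNA per cell cannot be told apart.

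Markers of ILC3s and of other cells differed within the pairs. Their levels do not tell other cells from ILC3s that express the same genes. The counts below stand beside the shares over all measured genes. Those were 16.6% at least 2-fold higher and 12.7% lower in KO. In CD93-positive ILC3s they were 2.49% higher and 1.94% lower. The ILC3 cytokine gene Il22 stood at 11771 FPKM in KO and 16102 FPKM in WT, and 1 of 13 ILC3 markers was at least 2-fold higher in KO. In the same pair, markers of exocrine pancreas summed to 1344 FPKM in KO and 0.274 FPKM in WT, with 7 of 7 at least 2-fold higher in KO. Markers of intestinal epithelium summed to 1072 FPKM in KO and 293 FPKM in WT (7 of 8 at least 2-fold higher), and those of B and plasma cells to 2820 FPKM in KO and 1147 FPKM in WT (3 of 5). T cell markers summed to 1410 FPKM in KO and 955 FPKM in WT (4 of 9), and those of NK cells and ILC1s to 1195 FPKM in KO and 787 FPKM in WT (3 of 9). Markers of plasmacytoid dendritic cells summed to 38.7 FPKM in KO and 8.05 FPKM in WT (3 of 5). Klk1 alone gave 18.6 FPKM of the KO sum and Ccr9 gave 11.6 FPKM, and Siglech, Cox6a2 and Spib were not tabulated in this pair. The sum therefore does not show that these cells were present. Markers of macrophages, monocytes and dendritic cells summed to 63.8 FPKM in KO and 17.5 FPKM in WT, with 4 of 6 higher and 2 lower. Klk1, Reg3b and 5 of the 7 pancreas markers were listed at 0 in WT. In the other pair, Il22 stood at 7934 FPKM in CD93-positive and 1655 FPKM in CD93-negative ILC3s, with 2 of 12 ILC3 markers at least 2-fold above their CD93-negative level. Markers of NK cells and ILC1s summed to 462 FPKM in CD93-positive and 900 FPKM in CD93-negative ILC3s, with 5 of 9 at least 2-fold lower. T cell markers summed to 25.5 FPKM in CD93-positive and 62.9 FPKM in CD93-negative ILC3s (3 of 4 lower), and epithelial markers to 25.0 FPKM in CD93-positive and 43.4 FPKM in CD93-negative ILC3s (1 of 5). Markers of plasmacytoid dendritic cells summed to 26.9 FPKM in CD93-positive and 39.5 FPKM in CD93-negative ILC3s (1 of 5 lower), and those of macrophages, monocytes and dendritic cells to 45.2 FPKM in CD93-positive and 39.8 FPKM in CD93-negative ILC3s (0 of 7 2-fold apart). Exocrine pancreas markers summed to 137 FPKM in CD93-positive and 204 FPKM in CD93-negative ILC3s (0 of 6). Of the B and plasma cell markers 1 was measured, at 2.27 FPKM in CD93-positive and 4.98 FPKM in CD93-negative ILC3s. The part of these cells in the results below was not tested.

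The KO and WT libraries differed in both directions across the list, with 18 of 34 type I effectors and 4 of 6 GTPases above 0. Of 40 measured members, 6 were at least 2-fold higher in KO (Usp18, Dhx58, Ifitm3, Gbp2, Ddx58 and Parp14) and 11 at least 2-fold lower (Ifit3, Ifit2, Eif2ak2, Mx1, Parp9, Dtx3l, Oas1a, Rtp4, Isg15, Cmpk2 and Apol9b). Over all 12376 measured genes, 16.6% were at least 2-fold higher, 12.7% at least 2-fold lower and 29.3% apart in either direction. The counts depended on the settings, with 0 higher and 4 lower at a pseudocount of 5, 3 and 1 among members with at least 1000 reads, 2 and 6 at a 3-fold limit, and 9 and 11 with the libraries scaled to a common sum. The median difference of the members was 0.08, against 0.01 over all measured genes, with 18 members below 0 (49.5% of all genes were). Stat2 and Adar (0.128 FPKM in KO and 0.581 FPKM in WT) stayed under 1 FPKM in both libraries and were not measured. The other 23 measured members differed by at most 0.87 in either direction. The members had a median level of 8.35 FPKM in KO and 6.84 FPKM in WT, and 23 of them in KO and 24 in WT lay above the median of all measured genes.

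**Figure D1:**
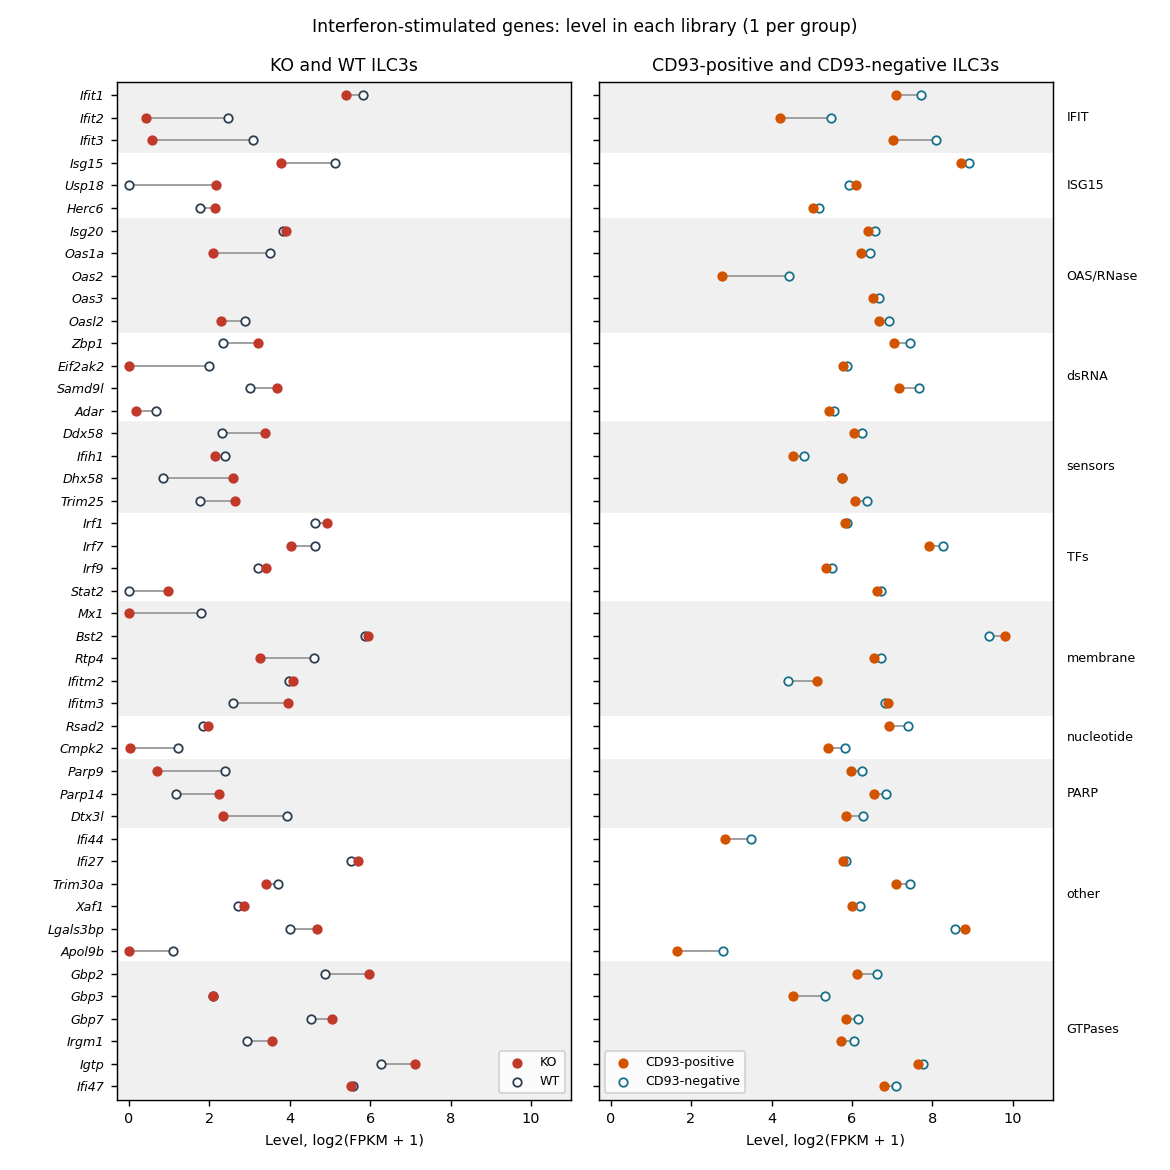
Level of each member in each library, as log2(FPKM + 1), with KO and WT on the left and CD93-positive and CD93-negative ILC3s on the right. Each point is 1 library, lines join the libraries of a pair, and shading groups members by role; the right panel has 39 of 44 members below their level in CD93-negative ILC3s, and the left panel has differences in both directions.

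The IFIT proteins, which bind viral RNA that lacks the host's cap marks, are encoded side by side on chromosome 19 (mm10: Ifit2 at chr19:34550694-34576419, Ifit3 at chr19:34583531-34588731, Ifit1 at chr19:34640871-34650009). All 3 were lower in KO, to different degrees. Ifit2 stood at 0.330 FPKM in KO and 4.54 FPKM in WT, from 35 and 465 reads (13.8-fold lower, 9.75 to 20.0). Ifit1, the highest of the 3, stood at 41.1 FPKM in KO and 55.3 FPKM in WT, from 2945 and 3834 reads (1.35-fold lower, 1.28 to 1.41). Ifit3 stood at 0.488 FPKM in KO and 7.53 FPKM in WT (15.4-fold lower, 10.1 to 24.7). Its near-identical copy Ifit3b was higher in KO, at 4.06 FPKM in KO and 0.556 FPKM in WT. Reads of Ifit3 and Ifit3b together came to 242 in KO and 372 in WT, which relative to the scaling totals is 1.59-fold lower. No source used here tells how the authors' counting divided reads between the copies, so the value of Ifit3 alone is uncertain.

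Of the ISG15 system, the ubiquitin-like modifier and the protease that removes it differed in opposite directions. Isg15 stood at 12.7 FPKM in KO and 33.6 FPKM in WT, from 260 and 662 reads (2.64-fold lower, 2.28 to 3.05). Usp18, which cleaves ISG15 from proteins and dampens IFNAR signalling, stood at 3.46 FPKM from 261 reads in KO and at 0 in WT. That is at least 84.1-fold higher when 3 reads are set in the WT library. Bounds of this kind cover counting error only. Values of 0 in 1 library were common in this pair (693 of 4154 genes below 1000 reads). Herc6, the mouse ligase that attaches ISG15, stood at 3.39 FPKM in KO and 2.41 FPKM in WT, a difference of 0.36.

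Among the enzymes that make 2′-5′ oligoadenylate to activate RNase L, Oas1a stood at 3.22 FPKM in KO and 10.4 FPKM in WT, from 164 and 513 reads (3.24-fold lower, 2.71 to 3.88). Together with its close copy Oas1g it had 194 reads in KO and 607 in WT, again 3.24-fold lower relative to the scaling totals. Oasl2, an OAS-like protein, differed by -0.60, at 3.85 FPKM in KO and 6.32 FPKM in WT. Isg20, an exonuclease of RNA, stood at 13.9 FPKM in KO and 13.3 FPKM in WT, a ratio whose interval held 1.

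Proteins that respond to double-stranded RNA were split. Eif2ak2, the kinase PKR that stops translation, was listed at 0 in KO and at 2.97 FPKM from 396 reads in WT, at least 137-fold lower against 3 reads in KO. Zbp1, a sensor of left-handed nucleic acids that can start necroptosis, stood at 8.16 FPKM in KO and 4.02 FPKM in WT, a difference of 0.87. Samd9l, an antiviral restriction factor, stood at 11.9 FPKM in KO and 7.05 FPKM in WT, a difference of 0.68.

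The cytosolic RNA sensors had a median difference of 0.96 over 4, with 2 at least 2-fold higher in KO (50%, against 16.6% of all genes). Dhx58 (LGP2) stood at 4.98 FPKM in KO and 0.797 FPKM in WT, from 440 and 68 reads (ratio 6.25, 4.83 to 8.19). It lay among the genes below 1000 reads, of which 44.7% were at least 2-fold apart. Ddx58 (RIG-I) stood at 9.44 FPKM in KO and 3.98 FPKM in WT, from 1798 and 732 reads (ratio 2.37, 2.18 to 2.59). Trim25, the ligase known for its work with RIG-I, had a difference of 0.86, just under the limit, at 5.20 FPKM in KO and 2.42 FPKM in WT. Ifih1 (MDA5) differed by -0.24, at 3.41 FPKM in KO and 4.20 FPKM in WT.

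No measured transcription factor of the list reached 2-fold in the FPKM as deposited. Irf7, which drives the amplification of type I interferon, stood at 15.3 FPKM in KO and 23.7 FPKM in WT (1.55-fold lower, 1.45 to 1.65). Irf1, a main mediator of the interferon-gamma response, stood at 29.2 FPKM in KO and 23.7 FPKM in WT (ratio 1.23, 1.17 to 1.30). Irf9, the DNA-binding part of the type I complex, stood at 9.59 FPKM in KO and 8.27 FPKM in WT, ratio 1.16 (1.07 to 1.25). Stat2, its partner, was below the limit for a measured gene, at 0.944 FPKM from 151 reads in KO and listed at 0 in WT. By the same bound as for Usp18, Stat2 was at least 48.6-fold higher in KO. With the libraries scaled to a common sum Stat2 was measured, and its difference of 1.002 was at least 2-fold.

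Of the membrane and trafficking proteins, Mx1, a dynamin-like GTPase that blocks influenza virus, was listed at 0 in KO and at 2.48 FPKM from 245 reads in WT, at least 84.5-fold lower. Rtp4, a receptor chaperone that binds RNA of flaviviruses, stood at 8.53 FPKM in KO and 23.2 FPKM in WT, from 491 and 1287 reads (2.71-fold lower, 2.44 to 3.02). It shares 13.9% of its exon bases with another annotated gene on the same strand. Ifitm3, which hinders fusion of virus with endosomes, stood at 14.4 FPKM in KO and 4.98 FPKM in WT, from 264 and 88 reads (ratio 2.90, 2.27 to 3.73). Its relative Ifitm2 differed by 0.09, at 15.9 FPKM in KO and 14.9 FPKM in WT. Bst2 (tetherin), which holds budding virus at the cell surface, was one of the highest members, at 60.6 FPKM in KO and 57.8 FPKM in WT (ratio 1.05, 0.973 to 1.13).

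The PARP family members on chromosome 16 differed in opposite directions. Parp9 (chr16:35938470-35972605) stood at 0.631 FPKM in KO and 4.19 FPKM in WT (6.65-fold lower, 5.27 to 8.48), and its partner ligase Dtx3l (chr16:35926511-35939151) at 4.06 FPKM in KO and 14.3 FPKM in WT (3.52-fold lower). The genes overlap on opposite strands, and no source used here tells whether counting used the strand, so reads of one may be counted for the other. Parp14 (chr16:35832874-35871544), a mono-ADP-ribosyltransferase, stood at 3.69 FPKM in KO and 1.26 FPKM in WT, from 926 and 307 reads (ratio 2.91, 2.56 to 3.33).

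Rsad2 (viperin) and Cmpk2, divergent neighbours on chromosome 12 that make antiviral nucleotides, differed in size. Rsad2 stood at 2.93 FPKM in KO and 2.55 FPKM in WT (ratio 1.15, 0.981 to 1.35), with an interval that held 1. Cmpk2 stood at 0.00890 FPKM from 1 read in KO and 1.33 FPKM from 144 reads in WT, a ratio with a wide interval (149-fold lower, 26.3 to 5928). Of the remaining type I effectors, Apol9b was listed at 0 in KO and at 1.14 FPKM from 54 reads in WT, at least 18.6-fold lower. Lgals3bp, a secreted glycoprotein, differed by 0.67 (24.4 FPKM in KO and 15.0 FPKM in WT). Ifi27 stood at 50.7 FPKM in KO and 45.0 FPKM in WT (ratio 1.13, 1.06 to 1.20). Xaf1 stood at 6.21 FPKM in KO and 5.49 FPKM in WT, and the TRIM protein Trim30a at 9.56 FPKM in KO and 12.0 FPKM in WT, both under 2-fold.

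The 6 GTPases, of families that act in defence against intracellular microbes, had a median difference of 0.56, against 0.06 for the 34 measured type I effectors. Of the GTPases, 1 was at least 2-fold higher in KO and 0 were lower, and of the type I effectors 5 were higher and 11 lower. As shares, 16.7% of the GTPases and 14.7% of the type I effectors were higher, close to the 16.6% of all genes, and 0% and 32.4% were lower, against 12.7%. The medians of the classes depended on which members were kept. Without members that share exons or have close copies the GTPase median was 0.30, and type I minus GTPases was -0.14 in place of -0.50. Without transcription factors and sensors the type I median turned to -0.31. Igtp (Irgm3), the highest member, stood at 138 FPKM in KO and 76.2 FPKM in WT, from 7517 and 4022 reads (ratio 1.81, 1.74 to 1.88). Gbp2 (chr3:142620602-142638008) stood at 61.2 FPKM in KO and 28.3 FPKM in WT, from 4160 and 1860 reads (ratio 2.16, 2.05 to 2.28). Irgm1, which protects host membranes, stood at 10.7 FPKM in KO and 6.62 FPKM in WT (ratio 1.61, 1.49 to 1.74). Gbp7 stood at 31.8 FPKM in KO and 22.2 FPKM in WT (ratio 1.44, 1.37 to 1.50). Ifi47 stood at 44.8 FPKM in KO and 46.4 FPKM in WT (ratio 0.964, 0.916 to 1.01), and Gbp3 at 3.22 FPKM in KO and 3.24 FPKM in WT (ratio 0.994, 0.839 to 1.18). Both intervals held 1, and both differences turned positive when the libraries were scaled to a common sum. The GTPases are close relatives of one another, so reads may be divided among them. Igtp shares 8.01% of its exon bases with Irgm2, and Gbp7 shares 11.3% with a pseudogene, each on the same strand.

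**Figure D2:**
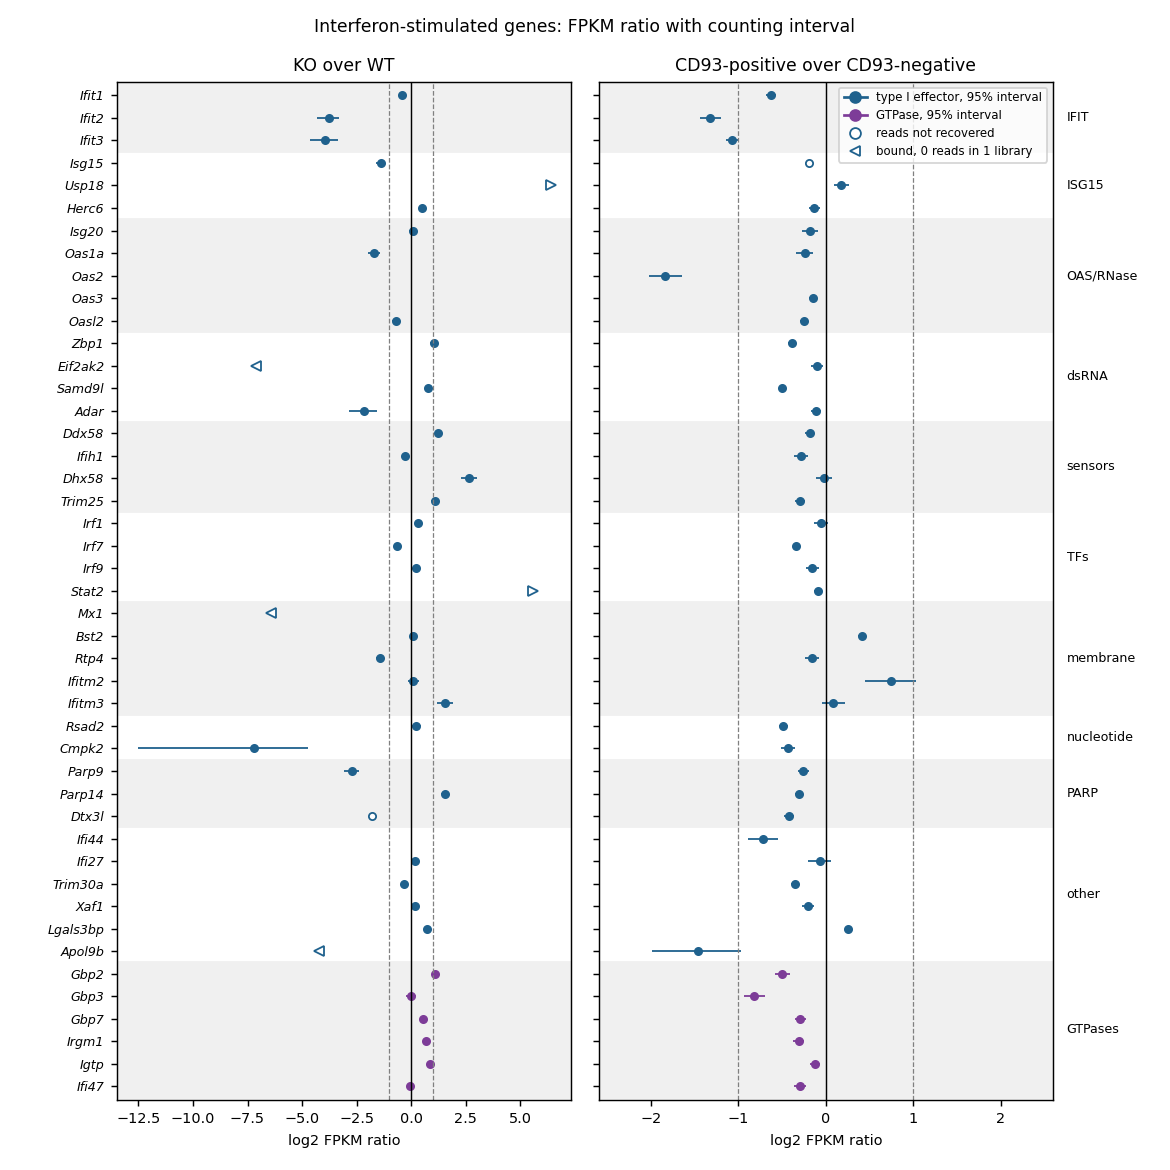
FPKM ratio of each member on a log2 axis, KO over WT on the left and CD93-positive over CD93-negative on the right, on axes of different range. Bars are 95% counting intervals, open triangles are bounds for members with 0 reads in 1 library, and dashed lines mark 2-fold; in the right panel 35 of 43 intervals lie below a ratio of 1.

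Receptors and other genes of the pathway were set beside the list. Of 10 receptors, JAKs and STATs, 0 were 2-fold apart, with a median of 0.08. Ifnar1 stood at 5.08 FPKM in KO and 5.74 FPKM in WT, and Ifnar2 at 3.27 FPKM in KO and 3.72 FPKM in WT. Ifngr1 stood at 950 FPKM in KO and 835 FPKM in WT, and Ifngr2 at 7.04 FPKM in KO and 5.38 FPKM in WT. The one interferon tabulated was Ifng, at 40.7 FPKM in KO and 28.8 FPKM in WT. Among 12 sensors, adaptors and kinases, Mavs, the adaptor of the RNA sensors, was higher (8.93 FPKM in KO and 1.29 FPKM in WT) and the DNA sensor Ifi204 lower (0.894 FPKM in KO and 2.82 FPKM in WT). These are 8.33% higher and 8.33% lower, under the 16.6% and 12.7% of all genes. Among 7 negative regulators, the phosphatase Ptpn6 was higher (37.3 FPKM in KO and 12.4 FPKM in WT), a share of 14.3%, against 16.6% of all genes. Of 36 further type I interferon-stimulated genes 8 were higher (22.2%) and 5 lower (13.9%), shares near the 16.6% and 12.7% of all genes, and the median was 0.35. Beside Ifit3b, those higher were Ifi209 (9.65 FPKM in KO and 3.77 FPKM in WT), Tor3a (4.19 FPKM in KO and 0.473 FPKM in WT), Ly6a (14.9 FPKM in KO and 3.12 FPKM in WT) and Slfn1 (2.68 FPKM in KO and 0.0823 FPKM in WT). Also higher were Trim34a (4.93 FPKM in KO and 1.29 FPKM in WT), the death ligand Tnfsf10 (4.37 FPKM in KO and 1.17 FPKM in WT) and the histone chaperone Daxx (10.5 FPKM in KO and 0.978 FPKM in WT). Those lower were Oasl1 (0.0142 FPKM in KO and 1.40 FPKM in WT), Mx2 (listed at 0 in KO and at 2.05 FPKM in WT), Phf11d (0.0107 FPKM in KO and 1.70 FPKM in WT), Parp12 (0.241 FPKM in KO and 2.23 FPKM in WT) and Ifi27l2a (3.12 FPKM in KO and 13.9 FPKM in WT). Of 12 further GTPases, such as Tgtp1 (94.6 FPKM in KO and 95.1 FPKM in WT), 0 were 2-fold apart, a median of 0.06. Of 14 genes for MHC class I, the immunoproteasome and interferon-induced chemokines, 1 was lower (7.14%, against 12.7% of all genes), and the median was -0.11. It was the proteasome activator subunit Psme2 (0.945 FPKM in KO and 4.02 FPKM in WT).

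Of the members 2-fold apart in this pair, most rested on few reads. Below 1000 recovered reads over the pair, 44.7% of 4154 measured genes were at least 2-fold apart, and so were 12 of 15 members, 3 higher and 9 lower. Of those 15 members, 4 had 0 reads in 1 library, as did 693 of the 4154 genes. In the CD93-positive and CD93-negative pair, 7 of 5042 genes below 1000 reads had 0 in 1 library. The bounds given above for members listed at 0 make no allowance for this. Between 1000 and 10000 reads, 13.5% of 3576 genes were 2-fold apart, and of 23 members 4 were (Gbp2, Ddx58 and Parp14 higher, Rtp4 lower). Igtp was the only member with more reads, a class in which 4.39% of genes were 2-fold apart. Reads of Dtx3l could not be recovered, so it stands in none of these classes.

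**Figure D3:**
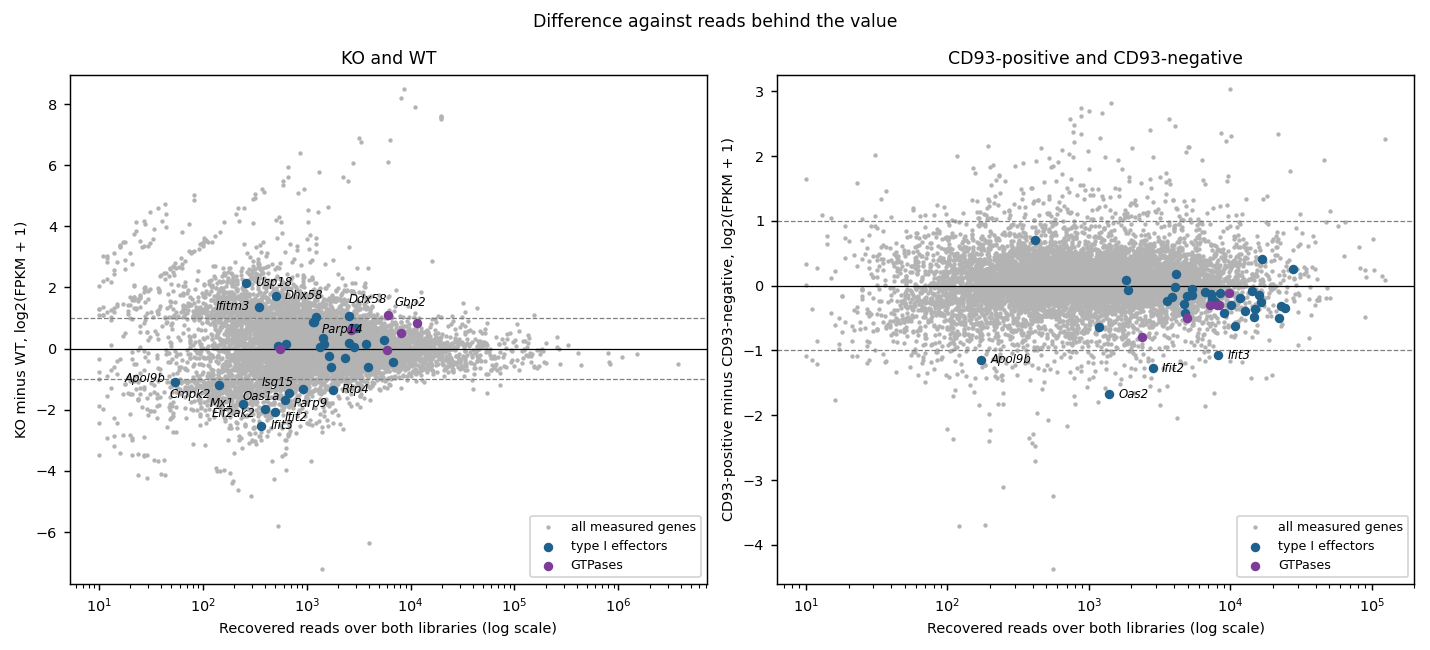
Difference of every measured gene with recovered reads (grey) and of the members (blue, type I effectors; purple, GTPases) against the reads over both libraries on a log axis, KO minus WT on the left and CD93-positive minus CD93-negative on the right. Dashed lines mark 2-fold and members past it are named; in KO and WT 12 of the named members lie below 1000 reads.

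CD93-positive ILC3s had lower levels of nearly the whole list than CD93-negative ILC3s, by small amounts. Of 44 measured members 39 lay below 0, against 45.6% of all 10117 measured genes, and the median difference was -0.25, against 0.04 over all genes. At least 2-fold lower were 4 members (Oas2, Ifit2, Apol9b and Ifit3), against 1.94% of all genes, and 0 were at least 2-fold higher, against 2.49%. In either direction 4.43% of genes were 2-fold apart. The other 40 members differed by at most 0.79. Of 43 members with an interval, 35 had a ratio below 1 with the interval excluding 1, 4 had one above 1 (Usp18, Bst2, Ifitm2 and Lgals3bp), and 4 had an interval that held 1 (Irf1, Ifi27, Dhx58 and Ifitm3). These members were highly expressed in their own table. Their median level was 66.9 FPKM in CD93-positive and 79.3 FPKM in CD93-negative ILC3s, against medians over all measured genes of 9.07 FPKM in CD93-positive and 8.82 FPKM in CD93-negative ILC3s. In CD93-positive ILC3s 33 of 44 members, and in CD93-negative ILC3s 37 of 44, lay among the top 10% of genes. The members held 1.91% of the summed FPKM of CD93-positive and 2.41% of that of CD93-negative ILC3s.

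**Figure D4:**
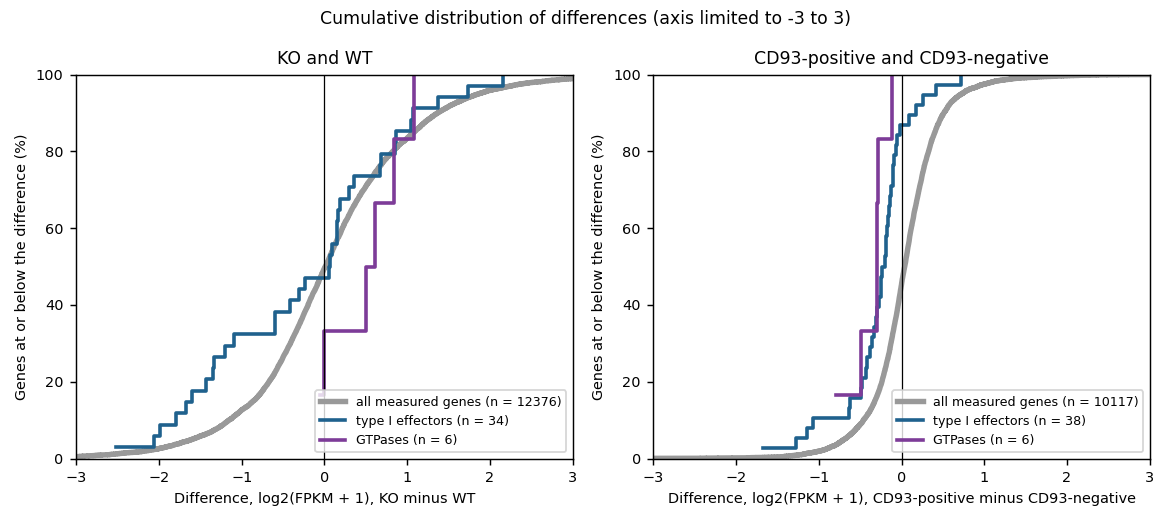
Cumulative share of genes at or below each log2(FPKM + 1) difference, KO minus WT on the left and CD93-positive minus CD93-negative on the right, for all measured genes (grey), type I effectors (blue) and GTPases (purple). In the right panel the medians of both classes lie left of that of all genes, with 6 of 6 GTPases below 0. In the left panel the GTPases have a median of 0.56, against 0.01 over all genes. Of them 16.7% were at least 2-fold higher, against 16.6% of all genes, and 12 further GTPases, not drawn as a class, had a median of 0.06.

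The IFIT genes showed the largest role difference, with a median of -1.07. Ifit2 stood at 17.5 FPKM in CD93-positive and 43.9 FPKM in CD93-negative ILC3s, from 807 and 2032 reads (2.50-fold lower, 2.30 to 2.72). Ifit3 stood at 129 FPKM in CD93-positive and 272 FPKM in CD93-negative ILC3s, from 2640 and 5604 reads (2.11-fold lower, 2.01 to 2.21). Here the copy Ifit3b was lower too (16.5 FPKM in CD93-positive and 31.8 FPKM in CD93-negative ILC3s), and the reads of both copies together were 2.09-fold lower relative to the scaling totals. Ifit1 stood at 135 FPKM in CD93-positive and 208 FPKM in CD93-negative ILC3s (1.54-fold lower, 1.48 to 1.60).

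Oas2 had the largest difference of the list, at 5.83 FPKM in CD93-positive and 20.8 FPKM in CD93-negative ILC3s, from 304 and 1092 reads (3.57-fold lower, 3.14 to 4.07). It lies at chr5:120730333-120749853. The other members of its family differed less. Oas1a differed by -0.24 (73.3 FPKM in CD93-positive and 86.7 FPKM in CD93-negative ILC3s), Oas3 by -0.14 (91.0 FPKM in CD93-positive and 101 FPKM in CD93-negative ILC3s) and Oasl2 by -0.25 (101 FPKM in CD93-positive and 120 FPKM in CD93-negative ILC3s). Isg20 differed by -0.17, at 83.3 FPKM in CD93-positive and 94.2 FPKM in CD93-negative ILC3s. Apol9b (chr15:77729039-77736382), of the apolipoprotein L family, stood at 2.16 FPKM in CD93-positive and 5.96 FPKM in CD93-negative ILC3s, from 46 and 128 reads (2.76-fold lower, 1.96 to 3.96), and was the lowest member. With its copy Apol9a it had 70 reads in CD93-positive and 181 reads in CD93-negative ILC3s, 2.57-fold lower relative to the scaling totals.

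The ISG15 system and the transcription factors stayed under 2-fold. Isg15 differed by -0.19, at 419 FPKM in CD93-positive and 480 FPKM in CD93-negative ILC3s, with no interval since its reads could not be recovered, and Herc6 by -0.13 (31.9 FPKM in CD93-positive and 35.0 FPKM in CD93-negative ILC3s). Usp18 stood at 67.3 FPKM in CD93-positive and 59.5 FPKM in CD93-negative ILC3s (ratio 1.13, 1.06 to 1.20). Irf7 stood at 243 FPKM in CD93-positive and 307 FPKM in CD93-negative ILC3s (1.26-fold lower, 1.23 to 1.30). The other factors differed less, with intervals below 1 for Irf9 and Stat2 and one that held 1 for Irf1. Irf1 stood at 56.1 FPKM in CD93-positive and 58.1 FPKM in CD93-negative ILC3s (ratio 0.965, 0.914 to 1.02). Irf9 stood at 40.0 FPKM in CD93-positive and 44.5 FPKM in CD93-negative ILC3s (ratio 0.899, 0.852 to 0.949). Stat2 stood at 98.3 FPKM in CD93-positive and 105 FPKM in CD93-negative ILC3s (ratio 0.941, 0.910 to 0.972).

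Membrane proteins were the role group with most members above 0, 3 of 4, and a median of 0.25. Bst2, the highest member in both libraries, stood at 899 FPKM in CD93-positive and 674 FPKM in CD93-negative ILC3s (ratio 1.33, 1.29 to 1.37). Ifitm2 stood at 33.8 FPKM in CD93-positive and 20.2 FPKM in CD93-negative ILC3s, from 259 and 156 reads (ratio 1.67, 1.36 to 2.05). Part of its exons is shared with another annotated gene (40.9% of exon bases), so its value is uncertain. Ifitm3 differed by 0.09, at 119 FPKM in CD93-positive and 112 FPKM in CD93-negative ILC3s, and its sign turned when the libraries were scaled to a common sum. Rtp4 differed by -0.16 (92.7 FPKM in CD93-positive and 104 FPKM in CD93-negative ILC3s). Outside this group, Lgals3bp stood at 452 FPKM in CD93-positive and 379 FPKM in CD93-negative ILC3s (ratio 1.19, 1.16 to 1.22).

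The RNA sensors and the proteins of the double-stranded RNA response lay below 0 throughout, with medians of -0.23 and -0.25. Samd9l had the largest difference of these, -0.49, at 144 FPKM in CD93-positive and 203 FPKM in CD93-negative ILC3s, and Zbp1 had -0.38 (132 FPKM in CD93-positive and 173 FPKM in CD93-negative ILC3s). Ddx58 differed by -0.18, Ifih1 by -0.27, Trim25 by -0.30, Eif2ak2 by -0.10 and Adar, the editing enzyme that marks double-stranded RNA as the cell's own, by -0.11, while Dhx58 had -0.02. The nucleotide antivirals Rsad2 and Cmpk2 differed by -0.48 and -0.43, and Parp9, Parp14 and Dtx3l by -0.25, -0.31 and -0.42. Ifi44 stood at 6.21 FPKM in CD93-positive and 10.2 FPKM in CD93-negative ILC3s, a difference of -0.64. Trim30a differed by -0.35, Xaf1 by -0.20 and Ifi27 by -0.07.

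All 6 GTPases were lower in CD93-positive ILC3s, with a median of -0.30, against -0.22 for the 38 type I effectors, medians that lay 0.08 apart. Gbp3 had the largest difference, -0.79, at 22.3 FPKM in CD93-positive and 39.3 FPKM in CD93-negative ILC3s (ratio 0.567, 0.521 to 0.617). Gbp2 had -0.49, at 68.8 FPKM in CD93-positive and 97.1 FPKM in CD93-negative ILC3s (ratio 0.709, 0.669 to 0.750). Igtp, the highest of the class, had -0.12, at 199 FPKM in CD93-positive and 216 FPKM in CD93-negative ILC3s (ratio 0.920, 0.884 to 0.957). The remaining 3 were alike in size. Gbp7 stood at 56.9 FPKM in CD93-positive and 69.8 FPKM in CD93-negative ILC3s (ratio 0.815, 0.781 to 0.851). Irgm1 stood at 52.3 FPKM in CD93-positive and 64.8 FPKM in CD93-negative ILC3s (ratio 0.808, 0.773 to 0.844). Ifi47 stood at 110 FPKM in CD93-positive and 136 FPKM in CD93-negative ILC3s (ratio 0.813, 0.776 to 0.852).

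The wider pathway gave like values for further members and other values for the receptors. Of 43 further type I interferon-stimulated genes 35 were below 0, with a median of -0.25, 1 was at least 2-fold higher (2.33%, against 2.49% of all genes; Ly6a, 588 FPKM in CD93-positive and 273 FPKM in CD93-negative ILC3s) and 5 were lower (11.6%, against 1.94%). Ifit1bl1, a relative of Ifit1, was one of the 5, at 4.19 FPKM in CD93-positive and 22.3 FPKM in CD93-negative ILC3s. Ifi209 stood at 53.7 FPKM in CD93-positive and 116 FPKM in CD93-negative ILC3s, and Ifi213 at 45.8 FPKM in CD93-positive and 105 FPKM in CD93-negative ILC3s, both of a family of interferon-inducible nuclear proteins. The Schlafen genes Slfn1 (13.9 FPKM in CD93-positive and 36.3 FPKM in CD93-negative ILC3s) and Slfn5 (17.9 FPKM in CD93-positive and 42.0 FPKM in CD93-negative ILC3s) made up the rest. Of 11 further GTPases all 11 were below 0, with a median of -0.37, and 1 was 2-fold lower (9.09%, against 1.94% of all genes). That was Gbp10 (4.81 FPKM in CD93-positive and 11.4 FPKM in CD93-negative ILC3s). Genes of MHC class I and the immunoproteasome lay the other way, with 12 of 13 above 0, a median of 0.23 and 0 at 2-fold. Of 10 receptors, JAKs and STATs, 1 was at least 2-fold higher (10%, against 2.49% of all genes), and the median was -0.03. It was the second chain of the interferon-gamma receptor, Ifngr2 (15.0 FPKM in CD93-positive and 4.46 FPKM in CD93-negative ILC3s). The other receptor chains stayed under 2-fold. Ifngr1 stood at 528 FPKM in CD93-positive and 651 FPKM in CD93-negative ILC3s. Ifnar1 stood at 15.9 FPKM in CD93-positive and 17.9 FPKM in CD93-negative ILC3s, and Ifnar2 at 11.3 FPKM in CD93-positive and 10.7 FPKM in CD93-negative ILC3s. Ifng stood at 5.54 FPKM in CD93-positive and 5.83 FPKM in CD93-negative ILC3s. The 14 sensors, adaptors and kinases had a median of 0.12 and the 7 negative regulators one of -0.07, with 0 at 2-fold in either.

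Reads behind these values were many. Of the 43 members with recovered reads, 27 had 1000 to 10000 over the pair, with 3 of them 2-fold apart (Ifit2, Ifit3 and Oas2) against 3.74% of 4468 genes. With 10000 reads or more there were 14 members, 0 of them 2-fold apart, against 4.82% of 332 genes. Apol9b was 1 of 2 members with fewer than 1000 reads, a class in which 5.02% of 5042 genes were 2-fold apart.

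Both tables measured 7595 genes of unique name, 39 of them members. Of the members, 17 (43.6%) lay below 0 in KO and in CD93-positive ILC3s, against 20.3% of the 7595 genes, and 5 (12.8%) lay above 0 in both, against 28% of the genes. Above 0 in KO and below 0 in CD93-positive ILC3s were 17 members (43.6%), against 23.8% of the genes, and the reverse held for 0 members, against 27.8%. With 39 of 44 members below 0 in CD93-positive ILC3s, these shares restate that the members lay mostly below 0 in the one pair and on both sides of 0 in the other. At least 2-fold lower in both were 3 members (7.69%), Ifit2, Ifit3 and Apol9b, against 0.29% of the genes, and Ifit3 and Apol9b have close copies. Summed with its copy Ifit3b, Ifit3 was 1.59-fold lower in KO, which is short of 2-fold. Apol9b rested on 0 reads in KO and 54 in WT. The comparisons share no library.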

How the data were processed

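RNA of 4 ILC3 libraries was sequenced, 1 per group. The authors deposited FPKM per gene in a table for each library and a joint table for each pair, and the rows of both held equal values. The submitters' processing notes name Bowtie2, featureCounts, Subread, edgeR and DESeq2, with mm10 as the build, and no source used here gives their versions, settings, strand or gene annotation. The members and lists were chosen with earlier results of these data known.

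Values were read with Python 3.11.15, pandas 2.3.3 and numpy 2.4.6. Reads were recovered as FPKM times union exon length (GENCODE M21) over 1 step per library, whole within 0.02 reads for 92.1% of KO, 91.9% of WT, 98.1% of CD93-positive and 98.2% of CD93-negative values above 0 with a length. The step search was tested on simulated data. Over all genes these were 20946647 reads in KO, 21660008 in WT, 11411006 for the CD93-positive and 10750240 for the CD93-negative library. Whether the scaling totals are sequenced reads was not tested. No source used here names molecular identifiers, so PCR copies may count as separate reads. Intervals came from scipy 1.17.1, and a member with 0 reads in 1 library has a bound against 3 reads there.

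Every member was accounted for. Full values were given to members at least 2-fold apart, the 5 highest of each pair, every GTPase and each transcription factor, and of the other lists to genes at least 2-fold apart and receptor subunits. Ratios with intervals were kept to the members. Part of what this rule covers is not reported here. Further genes given with values were chosen after their values were seen. No test was possible with 1 library per group. Alternatives were pseudocounts of 0.1 and 5, other filters, a 3-fold limit, 2 other scalings and, for type I effectors, leaving out transcription factors and sensors. After the data had been seen, a minimum of 1000 recovered reads and leaving out 13 members with shared exons or close copies were added. Of the marker lists, neutrophil, endothelial and fibroblast genes had at most 2 measured members in either pair and were not described.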

Additional observations from a re-analysis of the deposited data

How the results depend on the processing

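Signs and counts in both pairs were set by 1 library per group, so leaving out a replicate could not be run. Between KO and WT, a pseudocount of 5 gave 0 members at least 2-fold higher and 4 lower, a GTPase median of 0.43 and a type I minus GTPase difference of -0.38, against 6, 11, 0.56 and -0.50. Members with an FPKM of at least 5 gave 3 higher and 5 lower, and a 3-fold limit gave 2 and 6. A pseudocount of 0.1 gave 8 higher and 11 lower. Scaling to a common sum gave 9 higher and 11 lower, and moved the median of all genes to 0.17 and those of all members, type I effectors and GTPases to 0.26, 0.24 and 0.72. Without transcription factors and sensors the type I median turned to -0.31, and the difference between classes was -0.86. With at least 1000 recovered reads there were 3 higher and 1 lower, with medians of 0.24 for all members and 0.17 for type I effectors. Without members that share exons or have close copies there were 5 lower, a GTPase median of 0.30 and a difference of -0.14.

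Between CD93-positive and CD93-negative ILC3s, a 3-fold limit gave 1 lower, and leaving out the members with shared exons or copies gave 2 lower and a difference between classes of 0.20, against 4 and 0.08. Scaling to a common sum moved the median of all genes to -0.12 and those of all members, type I effectors and GTPases to -0.42, -0.39 and -0.47. The cause of these changes was not tested. In this pair 39 of 44 members lay below 0 under both pseudocounts and both scalings, and no sign changed other than those of Gbp3 and Ifi47 (KO and WT) and Ifitm3, each with a common sum.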
